A study of Mus musculus with 18 samples.

Results

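The 10 genes described here encode the muscle nicotinic acetylcholine receptor and the proteins that gather it under the nerve terminal. They were taken by symbol from a table of 55450 genes: the receptor subunit genes Chrna1, Chrnb1, Chrnd, Chrng and Chrne, and the clustering genes Agrn, Lrp4, Musk, Dok7 and Rapsn. All 10 were found, and all 10 were among the 17912 genes that passed the filter on low counts, although Chrne passed it through the myotube groups alone. The study sequenced polyadenylated RNA of C2C12 cells, an established line of mouse muscle precursors whose cells fuse into myotubes in low serum, to ask what the dosage of the Dlk1-Dio3 noncoding RNA cluster does to muscle cell state and differentiation. Its 18 libraries form 6 groups of 3: 3 lines, each as myoblasts in growth medium and as myotubes on day 3 in horse serum medium. The control line (px in the labels) was a sorted population that had received the pX458 plasmid, which carries Cas9 and EGFP, with no guide RNA. The line labelled Dlk1-Dio3 overexpressor (2-4) and the line labelled Dlk1-Dio3 knockout (2-7) had received the same plasmid with pairs of guide RNAs against the proximal promoter of Meg3, and each was grown from a single cell. Genotype and clone therefore cannot be told apart in any comparison of lines. Nothing in the labels says that replicates A, B and C were separate cultures, so the p-values measure the spread between these libraries, which may be technical. The labels name no nerve cells in these cultures, and protein is not analysed here.

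The muscle receptor is a pentamer of α, β and δ subunits together with a γ subunit in fetal muscle or an ε subunit in adult muscle. At the synapse, agrin released by the motor neuron binds LRP4 on the muscle surface, LRP4 activates the receptor kinase MuSK, the adaptor DOK7 binds and sustains MuSK, and the scaffold protein rapsyn ties receptors into clusters. Myogenic factors such as MyoD and myogenin switch on receptor subunit genes through E-boxes (CANNTG) as myoblasts differentiate, and in innervated fibres ETS factors act through the N-box (CCGGAA) of synaptic genes, that of Chrne among them.

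Promoters of 4 of the genes are shown because their transcripts behaved differently: Chrna1 was high in every group, Chrng went from low to high, Chrne was near 0 before differentiation, and Agrn went the other way. Each sequence covers 250 to 31 bases before the start of transcription, 5′ to 3′ on the strand of the gene, from RefSeq on GRCm38.p6. Capitals mark CANNTG, of which CAGCTG is one form and which reads the same on both strands, and CCGGAA, searched on both strands. The Chrna1 window is chr2:73580369-73580588 on the minus strand, and the Chrng window is chr1:87205561-87205780 on the plus strand. GENCODE places the start of Chrng at chr1:87204657, so this window precedes the RefSeq start but lies inside the gene as GENCODE gives it. The Chrne window is chr11:70619225-70619444 and the Agrn window is chr4:156197519-156197738, both on the minus strand.
Chrna1: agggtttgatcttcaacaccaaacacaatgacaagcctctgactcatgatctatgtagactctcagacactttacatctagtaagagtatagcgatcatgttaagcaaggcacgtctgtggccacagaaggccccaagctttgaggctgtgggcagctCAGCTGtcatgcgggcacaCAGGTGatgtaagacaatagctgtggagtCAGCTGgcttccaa
Chrng: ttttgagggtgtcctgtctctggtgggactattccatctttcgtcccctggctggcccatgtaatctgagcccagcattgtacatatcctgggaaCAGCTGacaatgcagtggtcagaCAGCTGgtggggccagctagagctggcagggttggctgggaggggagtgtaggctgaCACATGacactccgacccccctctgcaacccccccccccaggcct
Chrne: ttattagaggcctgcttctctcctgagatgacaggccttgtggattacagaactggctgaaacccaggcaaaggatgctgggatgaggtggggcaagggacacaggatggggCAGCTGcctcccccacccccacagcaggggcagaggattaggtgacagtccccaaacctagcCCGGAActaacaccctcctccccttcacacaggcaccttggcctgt
Agrn: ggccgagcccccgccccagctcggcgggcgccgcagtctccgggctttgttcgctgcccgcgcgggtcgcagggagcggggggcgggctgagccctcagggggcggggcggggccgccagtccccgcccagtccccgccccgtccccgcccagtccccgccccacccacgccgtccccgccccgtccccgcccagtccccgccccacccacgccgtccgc
Chrna1 and Chrng each held 3 CANNTG motifs, of which 2 read CAGCTG. Of 32851 RefSeq mouse promoter windows of the same length, 9.476% held at least 3 CANNTG motifs and 0.9832% at least 2 CAGCTG motifs. Chrne held 1 CAGCTG, at -138 from the start, and 1 CCGGAA, at -76. At least 1 CAGCTG was present in 11.39% of all windows and at least 1 CCGGAA in 9.473%. The Agrn window shown held neither CANNTG nor CCGGAA, and at least 1 CANNTG was present in 62.12% of all windows. Of the members with an entry, 7 in number, Musk had 3 CANNTG motifs, 1 of them CAGCTG, and Chrnb1 had 2, neither of them CAGCTG. Dok7 and Agrn have 2 annotated starts each, and Dok7 had 1 CANNTG motif before its first start and none before the other, while the other start of Agrn had 1. These matches describe letters in a window, and no binding was measured.

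Totals ran from 41544358 to 79140702 counts per library, so that a count of 0 allows up to 3 counts, or 0.0375 to 0.0693 CPM (counts corrected for library size by TMM); this limit covers counting error only. Meg3, whose promoter was edited, had from 5222 to 7763 counts across the 6 overexpressor libraries and 0 in all 6 control and all 6 knockout libraries, so its counts do not separate knockout from control. The 5 myoblast markers Myod1, Myf5, Des, Pax7 and Cdh15 summed to at least 1397 CPM in every library, and markers of other cells stayed low: 7 motor neuron markers summed to at most 3.80 CPM in any library, with Slc18a3 and Mnx1 at 0 throughout, 4 Schwann cell markers to at most 1.82 CPM with Sox10 at 0, and markers of endothelial cells, macrophages and adipocytes to under 1 CPM. Des led the myoblast sum and rose on differentiation of control from 913 to 2105 CPM. Myf5 fell from 25.5 to 6.20 CPM and Pax7 from 42.1 to 5.64, while Myod1 went from 208 to 216 and Cdh15 from 285 to 325. Differentiation markers did differ between lines. The 7 myotube markers Myog, Myh3, Ckm, Acta1, Tnnt3, Mymk and Mymx summed to 248 to 378 CPM in control myoblasts, 431 to 711 in overexpressor myoblasts and 9164 to 11700.0 in knockout myoblasts. They summed to 13745 to 14226 CPM in control myotubes, 20982 to 23124 in overexpressor myotubes and 29676 to 35376 in knockout myotubes. All 7 were detected in each group, but the sums are led by the most abundant of them. Of the 7, Myh3 alone had a lower mean in overexpressor than in control myoblasts, 42.5 against 47.2 CPM. Myog differed little between overexpressor and control myotubes, at 1855 against 1732 CPM. The part of these markers in the results below was not tested. In bulk RNA, more cells that express a gene and more RNA of it per cell cannot be told apart.

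Differentiation raised most of the 10 genes in each line. Adjusted p-values of genes are from edgeR's quasi-likelihood test over all 17912 genes, with a threshold of 0.05, and the number after ± beside a log2 difference is its standard error. In control cells 8 of the 10 rose and 2, Rapsn and Agrn, fell, where 33.9% of all tested genes rose and 28.8% fell. In the overexpressor 9 rose and Agrn fell (29.8% and 33.0% of all genes). In the knockout 7 rose, Agrn fell, and Musk and Lrp4 did not pass the test (29.8% and 35.6% of all genes). The median log2 fold change over the 10 genes was 0.94 for control, 1.28 for the overexpressor and 0.82 for the knockout, against 0.070, -0.023 and -0.075 over all tested genes. Chrne is among the genes counted as higher in each line, but it passed the filter through its myotube counts, so its call there is no support for the direction. Over the other 9 genes 7, 8 and 6 rose in the 3 lines, with medians of 0.83, 1.05 and 0.71.

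Most of the 10 transcripts were more abundant in the edited clones than in control at both stages, and Agrn was less abundant in both clones. In myoblasts, 7 of the 10 were higher in the overexpressor and 1, Agrn, was lower, against 20.7% and 19.7% of all tested genes. In knockout myoblasts 9 were higher and Agrn was lower (26.4% and 26.6% of all genes). Chrne is among these 9 on 6, 4 and 6 counts, against 0 in each control library, and without it 8 of 9 genes were higher. In myotubes, 8 were higher in the overexpressor and Agrn was lower (26.2% and 30.9%), and 8 were higher in the knockout while Lrp4 and Agrn were lower (31.0% and 37.0%). The clones share the control libraries in these comparisons. Medians over the 10 genes were 0.69 and 1.04 on the log2 scale in overexpressor and knockout myoblasts, with Chrne of the knockout set at its lower bound, and 1.05 and 1.04 in myotubes, where the all-gene medians lay between -0.068 and 0.019.

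Set directly against each other, the clones differed for 7 of the 10 genes at each stage. Overexpressor myoblasts had lower levels of 6 of the 10 genes than knockout myoblasts (Chrnb1, Chrnd, Chrng, Chrne, Musk and Dok7) and a higher level of 1, Lrp4, against 26.9% and 25.7% of all genes. The Chrne call among these rests on 0, 1 and 0 counts against 6, 4 and 6. As myotubes the overexpressor was higher for 4 (Chrnb1, Chrne, Musk and Lrp4) and lower for 3 (Chrnd, Rapsn and Dok7), against 30.6% and 29.1% of all genes. The counts in myotubes thus lie near the shares of all genes. The Chrnb1 and Chrnd differences in myotubes were small, 0.15 ± 0.049 (adjusted p = 0.0144) and -0.39 ± 0.12 (adjusted p = 0.0113) on the log2 scale. The call for Chrnb1 was lost without overexpressor myotube replicate B (adjusted p = 0.0567) or knockout myotube replicate B (0.0686), under DESeq2 size factors (0.0644) and in a fit on these 2 groups alone (0.0854). That for Chrnd was lost without overexpressor myotube replicate C (0.0546) or knockout myotube replicate C (0.0653) and with genes of low counts kept (0.0531).

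**Figure D1:**
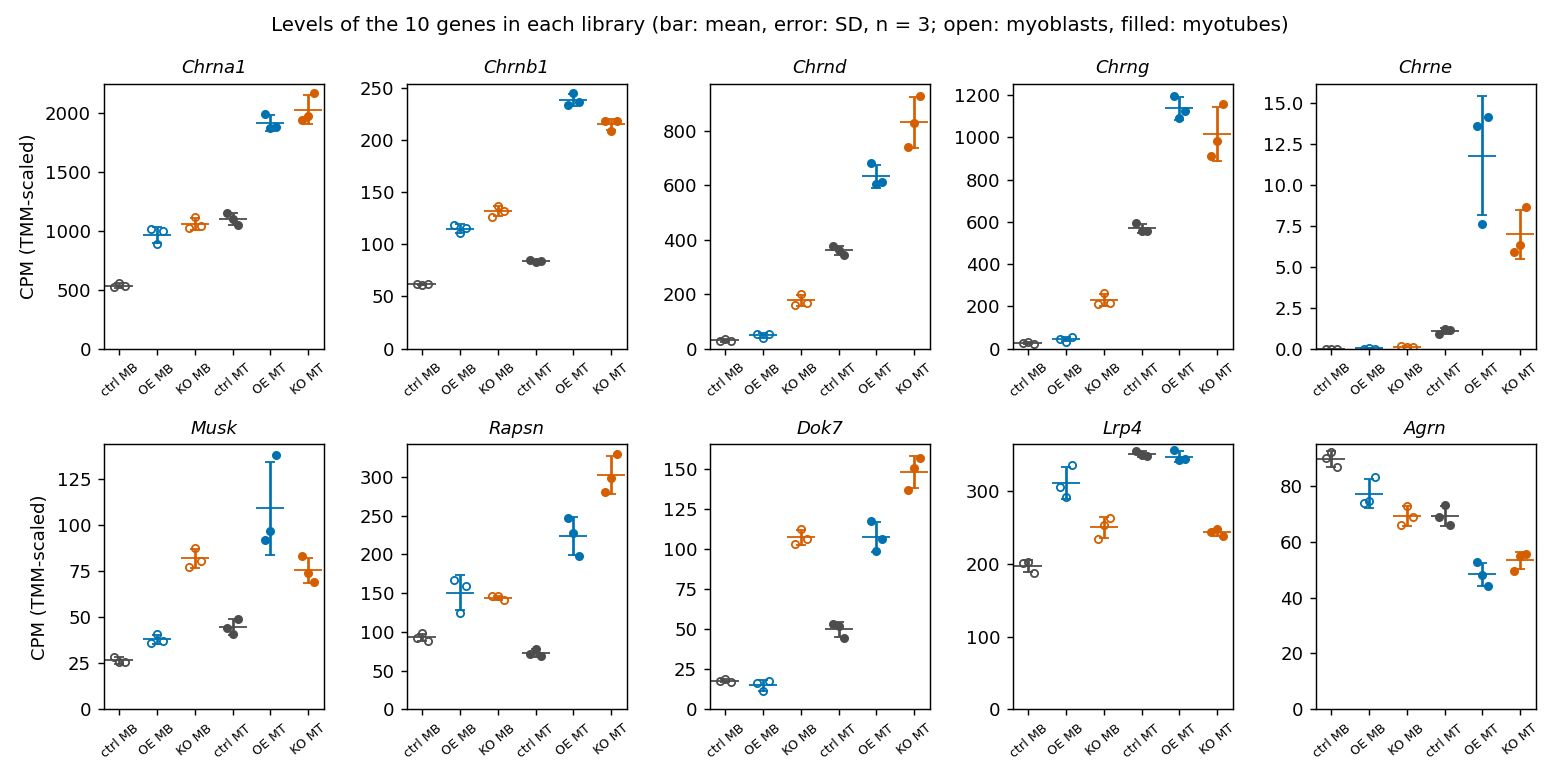
Levels of the 10 genes in CPM (linear axes from 0) in each of 18 libraries, by group (ctrl, control; OE, overexpressor; KO, knockout; MB, myoblasts; MT, myotubes); the bar is the mean and the error bar the SD of 3 libraries. Agrn is the gene whose control myoblasts stand highest, and Rapsn is lower in control myotubes than in control myoblasts but rises in both clones.

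Chrna1 (ENSMUSG00000027107, chr2:73563215-73580338, minus strand) encodes the α subunit, which carries most of the acetylcholine binding site and is present as a pair in each receptor; positions of genes here and below are from the GENCODE annotation of GRCm38. It was the subunit transcript with the highest level per exon length in every group, at 122 ± 4.32 RPKM (CPM per kilobase of exon) in control myoblasts and 461 ± 28.0 in knockout myotubes (SD, n = 3). In CPM it ran from 520.2 to 556 in control, 885 to 1012 in overexpressor and 1023 to 1114 in knockout myoblasts to 1048 to 1149.9, 1873 to 1985 and 1935 to 2162 in the myotubes of the same lines. Knockout myoblasts thus overlapped control myotubes, and the myotubes of the clones overlapped each other, while the other neighbours in this order did not overlap. Differentiation raised Chrna1 on the log2 scale by 1.04 ± 0.067 (adjusted p = 1.59e-10) for control, 0.99 ± 0.067 (adjusted p = 2.97e-10) for the overexpressor and 0.94 ± 0.067 (adjusted p = 1.32e-09) for the knockout. The difference of these responses from that of control was -0.051 (95% interval -0.25 to 0.15, adjusted p = 0.721) for the overexpressor and -0.10 (95% interval -0.30 to 0.093, adjusted p = 0.377) for the knockout, neither of which passed, and each changed sign with DESeq2 size factors. The clones stood above control at both stages: 0.85 ± 0.067 (adjusted p = 7.35e-09) and 0.99 ± 0.067 (adjusted p = 6.95e-10) in myoblasts, 0.80 ± 0.066 (adjusted p = 8.10e-09) and 0.88 ± 0.067 (adjusted p = 1.84e-09) in myotubes, for overexpressor and knockout.

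Chrnb1 (ENSMUSG00000041189, chr11:69784036-69795943, minus strand) encodes the β subunit, a structural subunit whose phosphorylation is linked to the anchoring of the receptor. Its groups did not overlap at all: 61.2 to 62.1 CPM in control myoblasts, 83.1 to 84.9 in control myotubes, 111 to 119 in overexpressor myoblasts, 127 to 136 in knockout myoblasts, 209 to 218 in knockout myotubes and 234 to 245 in overexpressor myotubes. Both clones therefore had more Chrnb1 as myoblasts than the control had as myotubes. Its rise on differentiation was the smallest of the 4 abundant subunit genes in control, 0.44 ± 0.050 (adjusted p = 3.22e-07), and was larger in the overexpressor, 1.05 ± 0.050 (adjusted p = 2.05e-12), and the knockout, 0.71 ± 0.049 (adjusted p = 1.01e-09). The differences of the responses from control passed for both, 0.61 ± 0.070 (adjusted p = 1.47e-06) and 0.26 ± 0.070 (adjusted p = 0.00476), the second of them not when genes with low counts were kept (adjusted p = 0.064). Against control, Chrnb1 was higher by 0.90 ± 0.050 (adjusted p = 6.55e-11) in overexpressor myoblasts and 1.09 ± 0.050 (adjusted p = 3.30e-12) in knockout myoblasts, and by 1.50 ± 0.050 (adjusted p = 3.64e-14) and 1.35 ± 0.050 (adjusted p = 1.22e-13) in myotubes.

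Chrnd (ENSMUSG00000026251, chr1:87190607-87200070, plus strand) encodes the δ subunit and lies on chromosome 1 with 4586 bases between its end and the start of Chrng, on the same strand. In control it rose from 28.8, 34.7 and 26.6 CPM in myoblasts to 377, 362 and 344 in myotubes of replicates A, B and C. The overexpressor went from 53.4, 38.5 and 52.5 to 681, 604 and 612, and the knockout from 160.5, 200.1 and 168 to 739.7, 826 and 927. None of the 6 groups overlapped another, and knockout myoblasts were closer to control myotubes on the log scale than the other myoblasts were. The responses were 3.59 ± 0.14 (adjusted p = 3.43e-13) for control, 3.72 ± 0.14 (adjusted p = 2.56e-13) for the overexpressor and 2.24 ± 0.13 (adjusted p = 1.97e-10) for the knockout, which was smaller than in control, a difference of -1.35 ± 0.18 (adjusted p = 7.93e-06), while the overexpressor differed from control by 0.13 (95% interval -0.25 to 0.50, adjusted p = 0.624). Relative to control, Chrnd was higher by 0.68 ± 0.13 (adjusted p = 3.31e-04) and 2.55 ± 0.13 (adjusted p = 4.54e-11) in overexpressor and knockout myoblasts and by 0.81 ± 0.12 (adjusted p = 2.47e-05) and 1.20 ± 0.12 (adjusted p = 2.07e-07) in their myotubes.

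Chrng (ENSMUSG00000026253, chr1:87204657-87212694, plus strand) encodes the fetal γ subunit, and its fitted rise on differentiation was the largest of the 4 abundant subunit genes in control and in the overexpressor, but not in the knockout. Control myoblasts had 25.9, 30.2 and 23.2 CPM in replicates A, B and C and control myotubes 595, 558 and 555. Overexpressor myoblasts had 45.4, 33.0 and 52.3 and overexpressor myotubes 1196, 1091 and 1126. Knockout myoblasts, at 211, 261 and 213, stood between the other myoblasts and all myotubes, and knockout myotubes reached 912, 981 and 1159, overlapping the overexpressor. The rise was 4.43 ± 0.16 (adjusted p = 3.64e-13) for control, 4.71 ± 0.16 (adjusted p = 2.20e-13) for the overexpressor and 2.15 ± 0.14 (adjusted p = 1.92e-09) for the knockout on the log2 scale, the last smaller than in control, a difference of -2.27 ± 0.20 (adjusted p = 1.08e-07). Knockout myoblasts exceeded control by 3.11 ± 0.15 (adjusted p = 4.06e-11), an 8.64-fold difference, and knockout myotubes by 0.84 ± 0.14 (adjusted p = 5.49e-05). The overexpressor exceeded control by 0.72 ± 0.14 (adjusted p = 6.57e-04) in myoblasts and 1.00 ± 0.14 (adjusted p = 1.07e-05) in myotubes, and its response differed from control by 0.28 (95% interval -0.14 to 0.70, adjusted p = 0.302).

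Chrne (ENSMUSG00000014609, chr11:70614883-70619216, minus strand) encodes the ε subunit, which replaces γ in adult, innervated muscle. It had 0, 0 and 0 counts in control myoblasts, 0, 1 and 0 in overexpressor myoblasts and 6, 4 and 6 in knockout myoblasts (replicates A, B and C), so every library of the first 2 groups was under the floor of 3 counts per library. Counts in myotubes were 47, 53 and 62 for control, 915, 609 and 1021 for the overexpressor and 347, 379 and 414 for the knockout. Chrne thus appeared in the myotubes of every line, with a highest value of 14.2 CPM. Relative to the floor, it was at least 17.8-fold higher in control myotubes than in control myoblasts and at least 182-fold higher in the overexpressor. In the knockout, with counts above the floor at both stages, the log2 difference was 6.07 ± 0.35. As the filter was passed through the myotubes, these differences are given with no test. Myotubes of the clones had 11.8 ± 3.63 and 6.98 ± 1.47 CPM against 1.07 ± 0.166 in control (SD, n = 3), which is 3.46 ± 0.25 (adjusted p = 5.33e-09) and 2.699 ± 0.25 (adjusted p = 8.76e-08) higher. Overexpressor and knockout myotubes overlapped, with overexpressor replicate B the lowest of its group, although the difference passed the test at 0.76 ± 0.21 (adjusted p = 0.00654). In myoblasts Chrne was at least 1.71-fold higher in the knockout than in control, and the call of the knockout over the overexpressor, at least 1.59-fold, was lost without overexpressor replicate A (adjusted p = 0.0539).

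γ remained the main partner throughout. Of the summed Chrng and Chrne RPKM, the ε share had a mean of 0.465% (0.367% to 0.532%) in control myotubes, 2.47% (1.69% to 3.01%) in overexpressor myotubes, 1.65% (1.57% to 1.81%) in knockout myotubes and 0.114% (0.0687% to 0.151%) in knockout myoblasts. In control and overexpressor myoblasts Chrne was under the floor, and 3 counts per library would allow a share of up to 0.468% to 0.706% in the control libraries and up to 0.324% to 0.481% in those of the overexpressor. The limits of control myoblasts, each for 1 library and not for the group, reach the shares of control myotubes. The shares of overexpressor myotubes lay above the limits of their myoblasts. As counted, the share was 0% in every control myoblast library. Against control myotubes this gave an exact two-sided permutation p of 0.1 (0.15 adjusted over 9 pairs). This share is taken within a library and does not depend on scaling between libraries. Each clone's myotubes stood apart from control myotubes, and knockout myotubes from knockout myoblasts, with an exact two-sided permutation p of 0.1 (0.15 adjusted over 9 pairs), the smallest that 3 against 3 allows. For overexpressor against knockout myotubes the exact permutation p was 0.2 (0.257 adjusted), and their ranges overlapped.

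The proportions of subunit transcripts also differed between groups. The RPKM of Chrna1 over that of Chrnd was 13.5 ± 1.42 in control myoblasts, 15.2 ± 1.75 in those of the overexpressor and 4.52 ± 0.312 in those of the knockout, and was 2.28 ± 0.0107, 2.27 ± 0.0729 and 1.83 ± 0.113 in the respective myotubes (SD, n = 3). Chrna1 over the sum of Chrng and Chrne went from 19.4 ± 2.06 to 1.82 ± 0.0343 for control, from 21.5 ± 3.71 to 1.56 ± 0.0402 for the overexpressor, and from 4.41 ± 0.317 to 1.87 ± 0.122 for the knockout. The α excess over δ and γ that marked control and overexpressor myoblasts was therefore much smaller in knockout myoblasts, with no overlap between libraries. Chrna1 over Chrnb1 was 4.99 ± 0.220 in control myoblasts and 7.53 ± 0.320 in control myotubes, against 4.82 ± 0.178 and 4.63 ± 0.246 in those of the overexpressor and 4.63 ± 0.104 and 5.43 ± 0.295 in those of the knockout. These ratios are given as descriptions with no test, and exons absent from these transcripts count in the lengths.

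**Figure D2:**
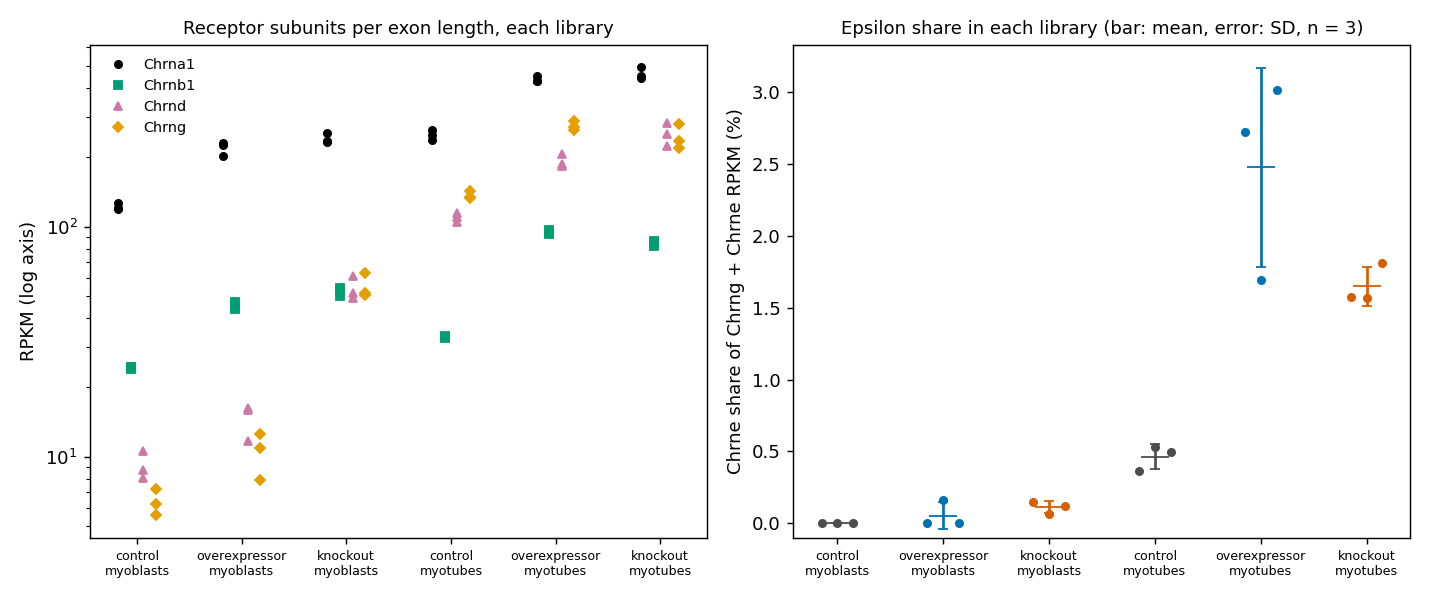
Left, RPKM of Chrna1, Chrnb1, Chrnd and Chrng on a log axis, 1 symbol per library, by group; right, the percentage of summed Chrng and Chrne RPKM that is Chrne, with the mean and SD of 3 libraries. Chrnd and Chrng lie below Chrnb1 in control and overexpressor myoblasts, near it in knockout myoblasts and above it in all myotubes, and the highest ε share is 3.01%, in overexpressor myotubes; the points of control and overexpressor myoblasts rest on 0 or 1 Chrne count and are drawn without their upper limits.

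Agrn (ENSMUSG00000041936, chr4:156165290-156197488, minus strand) encodes agrin, the ligand of the clustering pathway. Muscle also makes agrin, mostly in splice forms with little clustering activity, and counts per gene merge the forms. Agrn fell on differentiation in each line: from 90.0, 92.2 and 86.6 CPM to 68.9, 73.1 and 65.9 for control, from 74.0, 74.5 and 83.1 to 52.6, 48.0 and 44.3 in the overexpressor and from 65.9, 72.7 and 68.97 to 49.7, 54.8 and 55.5 in the knockout (replicates A, B and C). Control myoblasts were the highest of the 6 groups, knockout myoblasts overlapped control myotubes, and the myotubes of the clones overlapped each other. The changes were -0.37 ± 0.074 (adjusted p = 2.46e-04), -0.68 ± 0.074 (adjusted p = 2.26e-07) and -0.38 ± 0.074 (adjusted p = 2.34e-04) on the log2 scale. Agrn was also lower in the clones than in control, with log2 differences of -0.22 ± 0.073 (adjusted p = 0.0250) and -0.37 ± 0.073 (adjusted p = 3.06e-04) in overexpressor and knockout myoblasts and of -0.52 ± 0.074 (adjusted p = 7.50e-06) and -0.38 ± 0.074 (adjusted p = 1.95e-04) in myotubes. The overexpressor call in myoblasts was lost when control replicate A or B or overexpressor replicate A or B was left out (adjusted p from 0.0594 to 0.0964). The larger fall in the overexpressor than in control, -0.30 ± 0.10 (adjusted p = 0.0262), was lost under DESeq2 size factors (-0.19, adjusted p = 0.229), under library totals (-0.12, adjusted p = 0.397), and on leaving out overexpressor myotube replicate C (-0.13, adjusted p = 0.348), among others, and the knockout differed from control by -0.0056 (95% interval -0.22 to 0.21, adjusted p = 0.978).

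Lrp4 (ENSMUSG00000027253, chr2:91457511-91513779, plus strand) encodes the agrin receptor. In control it was at 201, 203 and 188 CPM in myoblasts and 356, 350.5 and 349 in myotubes of replicates A, B and C. The overexpressor went from 307, 293 and 336 as myoblasts to 356, 343 and 344 as myotubes, and the knockout from 235, 254 and 263 to 245, 248 and 239. Control myotubes overlapped overexpressor myotubes at the top of the order, and the knockout's stages overlapped each other. Lrp4 rose in control by 0.83 ± 0.059 (adjusted p = 6.13e-10) and in the overexpressor by 0.16 ± 0.058 (adjusted p = 0.0256), a call that was lost without overexpressor myoblast replicate A or B or overexpressor myotube replicate A (adjusted p from 0.0693 to 0.122) under library totals (0.139) and in a fit on these 2 groups alone (0.118). The change in the knockout was -0.039 (95% interval -0.16 to 0.084, adjusted p = 0.570). Both responses were smaller than that of control, with differences of -0.68 ± 0.083 (adjusted p = 3.06e-06) and -0.87 ± 0.083 (adjusted p = 1.16e-07). Lrp4 was higher than control in overexpressor myoblasts, 0.66 ± 0.059 (adjusted p = 4.18e-08), and knockout myoblasts, 0.34 ± 0.059 (adjusted p = 7.27e-05), but in myotubes the overexpressor differed by -0.015 (95% interval -0.14 to 0.11, adjusted p = 0.843) and the knockout was lower, -0.53 ± 0.059 (adjusted p = 3.01e-07). It was the member whose difference between knockout and control turned from higher in myoblasts to lower in myotubes.

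Musk (ENSMUSG00000057280, chr4:58285960-58374303, plus strand) encodes the receptor tyrosine kinase at the centre of the pathway. In control it went from 28.6, 25.5 and 25.5 CPM to 44.3, 40.7 and 49.4, in the overexpressor from 36.2, 40.8 and 37.3 to 92.2, 97.0 and 138 and in the knockout from 77.4, 87.8 and 80.8 to 83.1, 73.9 and 69.4 (replicates A, B and C). Knockout myoblasts were above control myotubes without overlap, overexpressor myoblasts overlapped control myotubes, and the spread was widest in overexpressor myotubes, where replicate C was the highest. The response was 0.76 ± 0.13 (adjusted p = 4.16e-05) in control and 1.52 ± 0.13 (adjusted p = 6.44e-09) in the overexpressor, a difference of 0.76 ± 0.18 (adjusted p = 0.00194). In the knockout the change was -0.12 (95% interval -0.38 to 0.14, adjusted p = 0.404), and the response was smaller than that of control, a difference of -0.88 ± 0.17 (adjusted p = 5.02e-04). Against control, Musk was higher by 0.52 ± 0.13 (adjusted p = 0.00259) in overexpressor and 1.63 ± 0.13 (adjusted p = 5.72e-09) in knockout myoblasts, and by 1.28 ± 0.12 (adjusted p = 7.78e-08) and 0.75 ± 0.12 (adjusted p = 3.72e-05) in myotubes.

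Dok7 (ENSMUSG00000044716, chr5:35056766-35087839, plus strand) encodes the cytoplasmic adaptor of MuSK. It stood at 17.98, 18.8 and 17.1 CPM in control myoblasts, 16.2, 11.2 and 17.8 in overexpressor myoblasts and 103, 113 and 107 in knockout myoblasts (replicates A, B and C). Myotubes had 53.2, 52.3 and 44.8 for control, 118, 99.1 and 106 for the overexpressor and 137, 151 and 157 for the knockout. Control and overexpressor myoblasts overlapped, and knockout myoblasts, above all control myotubes, overlapped overexpressor myotubes. Dok7 was 5.98-fold higher in knockout than in control myoblasts, a log2 difference of 2.58 ± 0.13 (adjusted p = 1.24e-11), while the overexpressor differed from control by -0.25 (95% interval -0.52 to 0.010, adjusted p = 0.121) and passed as lower when its replicate C was left out (-0.39, adjusted p = 0.0233). The response was 1.48 ± 0.12 (adjusted p = 8.27e-09) for control, 2.84 ± 0.13 (adjusted p = 1.71e-12) for the overexpressor and 0.46 ± 0.12 (adjusted p = 0.00249) for the knockout. It was larger than control in the overexpressor, a difference of 1.36 ± 0.17 (adjusted p = 5.35e-06), and smaller in the knockout, -1.01 ± 0.17 (adjusted p = 9.50e-05). In myotubes both clones exceeded control, by 1.11 ± 0.12 (adjusted p = 3.31e-07) and 1.57 ± 0.12 (adjusted p = 3.32e-09).

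Rapsn (ENSMUSG00000002104, chr2:91035620-91045729, plus strand) encodes rapsyn, and it was the gene whose response to differentiation ran in opposite directions. It fell in control, from 92.0, 98.1 and 88.7 CPM in myoblasts to 71.5, 78.0 and 68.4 in myotubes of replicates A, B and C. It rose in the overexpressor from 167, 124 and 159.6 to 247, 227 and 198 and in the knockout from 146, 146 and 141 to 281, 299 and 329. Control myotubes were the lowest of the 6 groups and knockout myotubes the highest, and the myoblasts of the clones overlapped each other. The changes were -0.36 ± 0.099 (adjusted p = 0.00448), 0.58 ± 0.099 (adjusted p = 5.19e-05) and 1.07 ± 0.099 (adjusted p = 3.98e-08) on the log2 scale, and the responses of the clones exceeded that of control by 0.93 ± 0.14 (adjusted p = 3.10e-05) and 1.43 ± 0.14 (adjusted p = 1.78e-07). Rapsn was higher than control by 0.69 ± 0.099 (adjusted p = 1.59e-05) and 0.63 ± 0.099 (adjusted p = 2.87e-05) in overexpressor and knockout myoblasts and by 1.63 ± 0.10 (adjusted p = 1.50e-10) and 2.06 ± 0.10 (adjusted p = 6.02e-12) in myotubes, where the fold differences were 3.09 and 4.17.

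**Figure D3:**
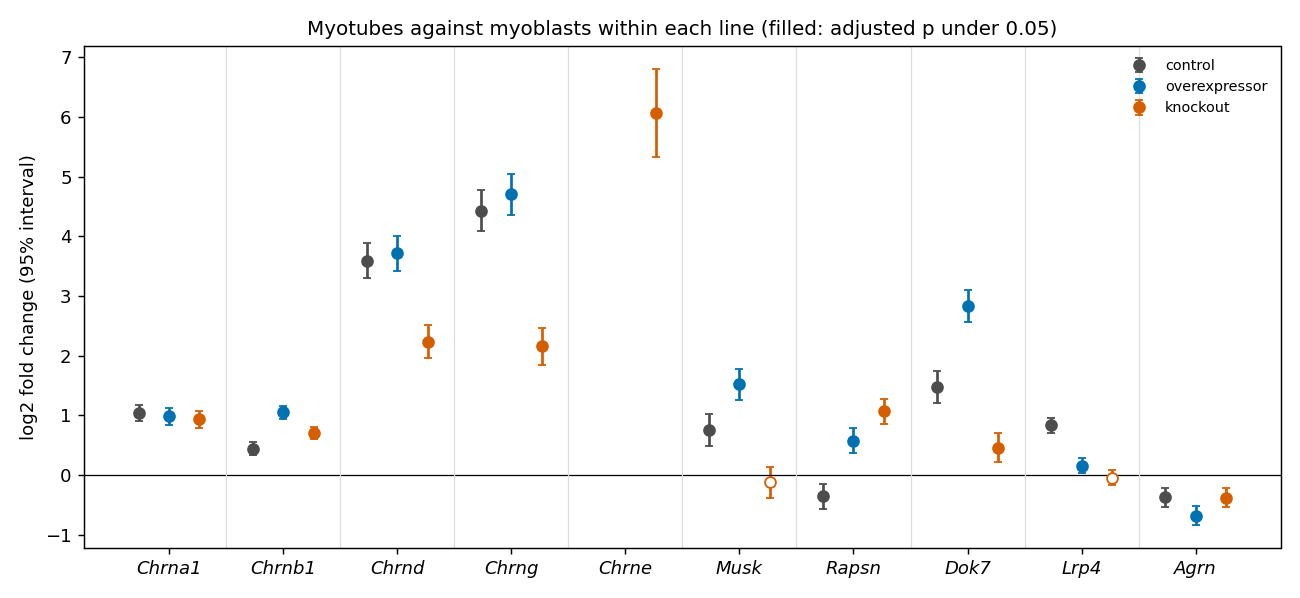
Log2 fold change of myotubes over myoblasts in each line with its 95% interval. Filled symbols passed an adjusted p of 0.05. Chrne is drawn for the knockout alone, as its myoblasts were at the floor in the other lines. Its filled symbol is no support for the direction, because Chrne passed the filter through its myotube counts. For Chrnd and Chrng the intervals of control and overexpressor overlap and that of the knockout lies lower, Rapsn is below 0 in control and above 0 in both clones, and Agrn is below 0 in each line.

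Over the differentiation response as a whole, the interaction with the overexpressor passed as higher for 4 members (Chrnb1, Musk, Rapsn and Dok7) and as lower for 2 (Lrp4 and Agrn), against 16.6% and 22.3% of all tested genes. With the knockout it passed as higher for 2 (Chrnb1 and Rapsn) and as lower for 5 (Chrnd, Chrng, Musk, Dok7 and Lrp4), against 20.2% and 29.9%. The 2 lower with the overexpressor and the 2 higher with the knockout thus lie near the shares of all genes. Both contrasts share the control libraries. Knockout myoblasts, from which the knockout responses are also computed, exceeded control for the 5 genes with a smaller response, for Chrnb1 and Rapsn with a larger one, and for Chrna1 and Chrne, whose responses did not pass as different. The summed myotube markers also differed between these myoblasts, by the ranges given above, and their part in these responses was not tested.

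**Figure D4:**
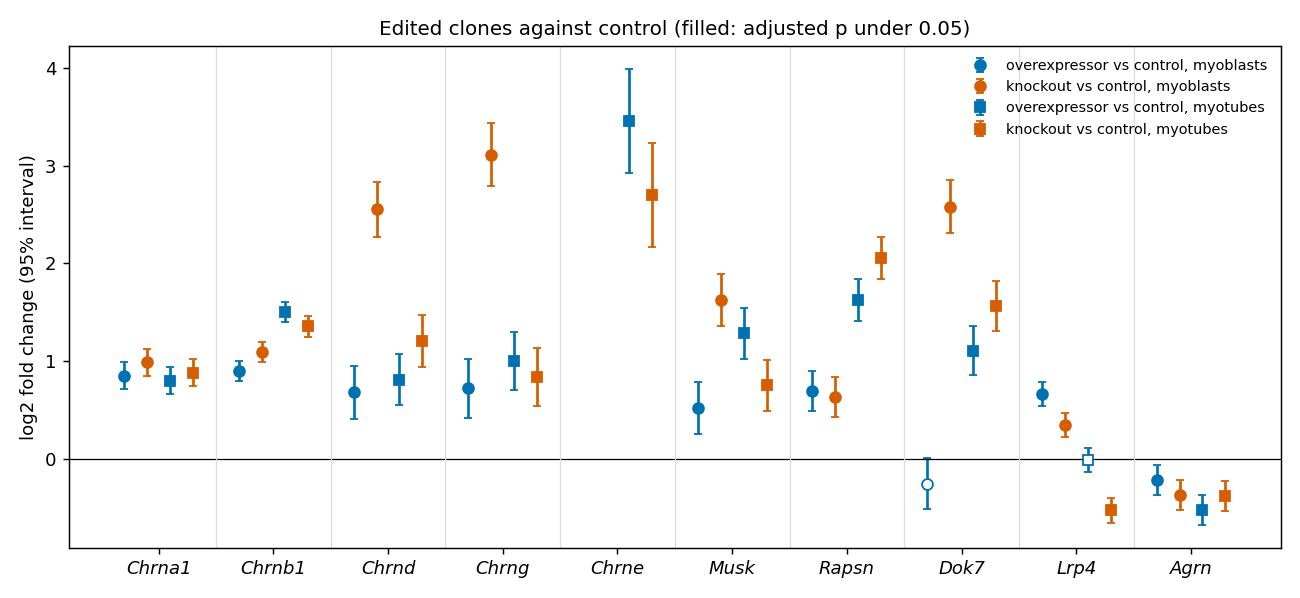
Log2 fold change of each clone over control with its 95% interval, in myoblasts (circles) and myotubes (squares); filled symbols passed an adjusted p of 0.05, and Chrne is not drawn in myoblasts, where control was at 0 counts. Chrnd, Chrng, Musk and Dok7 have their largest differences in knockout myoblasts, Rapsn in knockout myotubes, and Agrn is below 0 throughout.

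Genes that act with these 10 were counted in lists. The counts of each list are to be read beside the shares of all tested genes called higher and lower against control, which were 20.7% and 19.7% in overexpressor myoblasts, 26.4% and 26.6% in knockout myoblasts, 26.2% and 30.9% in overexpressor myotubes and 31.0% and 37.0% in knockout myotubes. On differentiation these shares were 33.9% and 28.8% for control, 29.8% and 33.0% for the overexpressor and 29.8% and 35.6% for the knockout. The list of agrin-MuSK signalling partners held 19 tested genes, and against control it had 9 higher and 1 lower of 19 in overexpressor myoblasts, 4 higher and 7 lower of 19 in knockout myoblasts, 5 higher and 6 lower of 19 in overexpressor myotubes and 2 higher and 13 lower of 19 in knockout myotubes. As shares of the list these are 47.4% and 5.26%, 21.1% and 36.8%, 26.3% and 31.6% and 10.5% and 68.4%, which in overexpressor myotubes lie near those of all genes. The median log2 fold changes were 0.20, -0.14, 0.011 and -0.45, where the all-gene medians were 0.015, 0.019, -0.037 and -0.068. Fyn, a Src-family kinase that phosphorylates receptor subunits, rose in control from 43.7 to 232 CPM, 2.41 ± 0.063 (adjusted p = 1.13e-15) on the log2 scale. In knockout myoblasts Fyn was higher, 1.90 ± 0.062 (adjusted p = 3.87e-14), while its relative Src was lower, -1.93 ± 0.089 (adjusted p = 3.46e-12), at 23.4 against 89.5 CPM in control. The medians of the list on differentiation were 0.12, -0.031 and -0.31, with all-gene medians of 0.070, -0.023 and -0.075 for the 3 lines. On differentiation the list had 8 higher and 6 lower of 19 for control, 7 higher and 8 lower of 19 for the overexpressor and 6 higher and 10 lower of 19 for the knockout.

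Neuregulin is a nerve- and muscle-derived factor that acts through ErbB receptors and ETS factors such as ETV4 and ETV5 on synaptic genes. Of this list, 8 of 9 genes were tested, with 2 higher and 3 lower of 8 on differentiation of control, 3 higher and 1 lower of 8 in the overexpressor and 3 higher and 5 lower of 8 in the knockout. Erbb3, the receptor that binds neuregulin, rose in control myotubes from 4.41 to 86.7 CPM, 4.29 ± 0.098 (adjusted p = 3.37e-16), and in knockout myoblasts stood at 62.4 CPM, 3.82 ± 0.097 (adjusted p = 1.85e-15) above control. Nrg1 itself was lower than control in the clones: -2.57 ± 0.12 (adjusted p = 6.53e-12) and -1.14 ± 0.11 (adjusted p = 1.17e-07) in overexpressor and knockout myoblasts, -2.04 ± 0.12 (adjusted p = 5.60e-11) and -2.50 ± 0.12 (adjusted p = 4.06e-12) in myotubes. The medians of the list were -0.079, 0.030 and -0.54 on differentiation, in the order given. Etv4 fell and Etv5 rose on differentiation of control, -2.42 ± 0.12 (adjusted p = 6.34e-12) and 1.96 ± 0.075 (adjusted p = 1.11e-13). Unlike Nrg1, Etv4 was higher than control in the myotubes of the clones. The differences were 2.19 ± 0.12 (adjusted p = 3.77e-11) in the overexpressor and 1.87 ± 0.12 (adjusted p = 2.66e-10) in the knockout. Erbb3 was also higher in overexpressor than in control myotubes, 1.40 ± 0.083 (adjusted p = 8.12e-11). Against control the list had 3 higher and 2 lower of 8 and 2 higher and 1 lower of 8 in overexpressor and knockout myoblasts, and 3 higher and 2 lower of 8 and 4 higher and 4 lower of 8 in myotubes. These 4 medians were 0.18, -0.054, 0.14 and -0.13 (all-gene medians as above).

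Factors that bind E-boxes, or the Id proteins that keep them from DNA, formed a list of 10 genes. On differentiation it had 2 higher and 6 lower of 10 for control, 1 higher and 7 lower of 10 for the overexpressor and 3 higher and 7 lower of 10 for the knockout, with medians of -0.63, -0.86 and -0.98. Myog, which encodes myogenin, went from 105 to 1732 CPM in control, and Id3, an inhibitor of E-box binding, from 305 to 11.7. Knockout myoblasts had 1157 CPM of Myog, 3.46 ± 0.15 (adjusted p = 6.34e-12) above control, and overexpressor myoblasts 297, 1.50 ± 0.14 (adjusted p = 1.62e-07) above it. Against control this list had 6 higher and 1 lower of 10 in overexpressor and 4 higher and 1 lower of 10 in knockout myoblasts, and 3 higher and 6 lower of 10 and 6 higher and 3 lower of 10 in myotubes. The medians were 0.83, 0.062, -0.30 and 0.38 in that order. Myog is also one of the myotube markers given above.

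The matrix of the synaptic cleft was represented by 12 genes. Differentiation gave 8 higher and 1 lower of 12 for control, 7 higher and 5 lower of 12 for the overexpressor and 5 higher and 5 lower of 12 for the knockout. Ache, acetylcholinesterase, went from 0.207 to 6.15 CPM in control, 4.88 ± 0.26 (adjusted p = 1.16e-11), and Colq, the collagen tail that anchors the enzyme, from 0.120 to 9.03, 6.21 ± 0.26 (adjusted p = 3.01e-13). In knockout myotubes both exceeded control, at 35.7 CPM for Ache, 2.54 ± 0.18 (adjusted p = 6.85e-10), and 31.3 CPM for Colq, 1.79 ± 0.16 (adjusted p = 1.42e-08). Col13a1, a muscle collagen that stabilises the synapse, went the other way from the receptor genes: it was lower in the myotubes of the clones, -3.67 ± 0.33 (adjusted p = 1.05e-06) in the overexpressor and -3.74 ± 0.35 (adjusted p = 1.05e-06) in the knockout, at 0.187 and 0.175 CPM against 2.37 in control. Against control the list had 5 higher and 5 lower of 12 and 7 higher and 2 lower of 12 in overexpressor and knockout myoblasts, and 4 higher and 7 lower of 12 and 6 higher and 5 lower of 12 in myotubes. The medians of the matrix list were 0.33, 0.40 and -0.053 for the 3 lines on differentiation and -0.11, 0.46, -0.27 and 0.22 for these 4 comparisons.

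Across the 18 libraries, which share lines and stages, the log2 CPM of Chrna1 was most like that of Bag1 (Pearson r 0.993), Arl6ip5 (0.990), Klhl30 (0.988), Tnfrsf23 (0.985) and Cdh13 (0.983) among genes that are not members. Within the 10, Chrna1 had r from 0.932 with Chrnb1 down to 0.494 with Lrp4, and -0.927 with Agrn. The genes most like Agrn were Crtap (0.979), Txndc5 (0.979), Tspan4 (0.975), Prr14 (0.975) and Smo (0.975). These coefficients describe 6 groups of 3 libraries and are given with no test.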

How the data were processed

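Raw read counts by Ensembl gene, with a column for each library, were deposited by the authors. Per the submitters' processing notes the tools were STAR 2.7.9a, featureCounts (Subread 2.0.3), FastQC 0.11.7 and DESeq2 1.32.0 with build mm10; the strand setting and annotation release are not given in the sources used here, so genes with near-identical copies or antisense partners are uncertain (a 4-base antisense overlap was found for Rapsn, none for the other members). Their variance-stabilised table was not used. Libraries were grouped by title, and 55190 of 55450 gene IDs matched a symbol in GENCODE or RefSeq names. CPM uses TMM factors (0.895 to 1.08); RPKM divides by the union of GENCODE exons.

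All 18 libraries entered 1 edgeR 4.0.16 fit in R 4.3.3 (filterByExpr, quasi-likelihood, robust, 6 group coefficients, 12 residual degrees of freedom), with 11 contrasts and Benjamini-Hochberg adjustment over 17912 genes. The standard error is the log2 fold change divided by the square root of F. The fit was tested on simulated data. Members and lists were chosen with earlier results of these data known. All members are named, and of each list, per line comparison and differentiation response, up to 3 called genes with the largest change that reach 1 CPM; examples are given from these. Likeness is the highest Pearson r among genes of at least 5 CPM in their highest group. Alternatives were DESeq2 1.42.0 size factors and Wald test, library totals, no count filter, a replicate block, fits on the groups compared, and leaving out each library.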

Additional observations from a re-analysis of the deposited data

Results flagged for a closer look

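The response to differentiation differed between a clone and control for 13 pairs of member and clone by the interaction term of the edgeR fit: 6 of 10 members for the overexpressor, where 16.6% of all tested genes passed as higher and 22.3% as lower, and 7 of 10 for the knockout, where 20.2% and 29.9% did. Each clone is 1 line and both share the control libraries. The count passing as lower for the overexpressor and that passing as higher for the knockout lie near these shares. For the overexpressor the difference in log2 response from control was 0.6051 for Chrnb1 (adjusted p = 1.47e-06), 0.7634 for Musk (0.00194), 0.9321 for Rapsn (3.10e-05), 1.3594 for Dok7 (5.35e-06), -0.6753 for Lrp4 (3.06e-06) and -0.305 for Agrn (0.0262). For the knockout it was 0.2616 for Chrnb1 (adjusted p = 0.00476), -1.3514 for Chrnd (7.93e-06), -2.2743 for Chrng (1.08e-07), -0.8756 for Musk (5.02e-04), 1.4259 for Rapsn (1.78e-07), -1.0146 for Dok7 (9.50e-05) and -0.8724 for Lrp4 (1.16e-07). Musk and Dok7 moved in opposite directions in the 2 clones, larger than control in the overexpressor and smaller in the knockout. Chrnb1 and Rapsn were larger in both and Lrp4 smaller in both. The calls for Agrn with the overexpressor and for Chrnb1 with the knockout were lost under some alternatives, given elsewhere in this report.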

How the results depend on the processing

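Of 110 values (10 members in 11 comparisons), 92 passed the threshold. Of these, 85 kept their direction and their call under every alternative that gave a value, and none of the 92 changed direction. Both counts include Chrne on differentiation in each line. Chrne passed the filter through its myotube counts, so those calls are no support for the direction or for its stability. Among the 85, Chrne in knockout against control myoblasts had a value in 11 alternatives, where the other members had 12. The 7 that lost the call in some alternative were Lrp4 in overexpressor differentiation, Agrn in overexpressor against control myoblasts and in the overexpressor response, Chrne, Chrnb1 and Chrnd in overexpressor against knockout, and Chrnb1 in the knockout response. Members lower numbered 2 in place of 1 in knockout differentiation under library totals (Lrp4 added). In the overexpressor response, members lower numbered 1 in place of 2 under DESeq2 size factors, library totals, no filter and the DESeq2 Wald test, and 1 to 2 with a library left out. Members higher in the knockout response numbered 1 in place of 2 with no filter. Members lower in overexpressor against control myoblasts ranged from 0 to 2 with a library left out. The cause was not tested.

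Values that changed sign were all short of the threshold. Under DESeq2 size factors and the DESeq2 Wald test, in that order, they were 0.0051 and 0.0051 for Musk and 0.087 and 0.086 for Lrp4 in knockout differentiation, 0.096 and 0.096 for Lrp4 in overexpressor against control myotubes, 0.061 and 0.061 for Chrna1 in the overexpressor response, and 0.051 and 0.051 for Chrna1 and 0.15 and 0.15 for Agrn in the knockout response. Under library totals they were 0.13 for Lrp4 in overexpressor against control myotubes, 0.019 for Chrna1 in overexpressor against knockout myotubes, 0.14 for Chrna1 in the overexpressor response and 0.067 for Agrn in the knockout response. With fits on the groups compared they were 0.025 for Lrp4 in knockout differentiation, 0.073 for Lrp4 in overexpressor against control myotubes and 0.091 for Agrn in the knockout response. With no filter, Lrp4 in overexpressor against control myotubes was 0.00068. With a library left out, Rapsn in overexpressor against knockout myoblasts ranged from -0.022 to 0.18, Lrp4 in overexpressor against control myotubes from -0.031 to 0.096, Chrna1 and Chrnd in the overexpressor response from -0.11 to 0.077 and from -0.0084 to 0.26, and Agrn in the knockout response from -0.042 to 0.045.

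The replicate letters did not pair the samples: over 45 pairs of libraries with the same letter the correlation of deviations ran from -0.36 to 0.26, and 4 were over 0.1. With the letter as a replicate block, members higher and lower numbered 8 and 2 in control differentiation and 9 and 1 in overexpressor differentiation, and it changed no call of a member. Without length scaling the Chrng share of counts was 99.9536% in knockout myoblasts, 99.8109% in control myotubes, 98.9795% in overexpressor myotubes and 99.3234% in knockout myotubes, above the values per length because Chrng has the longer exons. Library totals in place of TMM factors moved the all-gene median log2 fold change from 0.070 to -0.17 in control differentiation and from -0.051 to 0.14 in the overexpressor response, and the higher share of all calls from 54.0% to 37.9%, and from 42.7% to 61.0%. In knockout differentiation and in overexpressor against control myotubes the share went from 45.5% to 34.0% and from 45.8% to 57.8%. DESeq2 size factors moved it from 42.7% to 53.9% in the overexpressor response and from 40.4% to 52.0% in the knockout response. In myoblasts depth limits Chrne, whose control and overexpressor libraries hold at most 1 count.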

Other observations

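Genes linked to the control of receptor transcription by muscle activity and denervation, a list of 8 with 7 tested, had 4 higher and 1 lower of 7 in overexpressor myotubes and 4 higher and 2 lower of 7 in knockout myotubes against control, with medians of 0.44 and 0.62 beside all-gene medians of -0.037 and -0.068. Of all tested genes, 26.2% were higher and 30.9% lower in overexpressor myotubes, and 31.0% and 37.0% in knockout myotubes. Camk2a, a calcium-dependent kinase, rose on differentiation of control from 3.25 to 160.0 CPM, 5.62 ± 0.20 (adjusted p = 9.22e-13) on the log2 scale by edgeR's quasi-likelihood test. Hdac4, a deacetylase that links denervation to receptor genes, was lower in the myotubes of the clones, -1.78 ± 0.077 (adjusted p = 1.18e-12) in the overexpressor and -0.98 ± 0.076 (adjusted p = 2.45e-09) in the knockout, at 35.9 and 62.4 CPM against 123 in control. Other genes of the list were higher there. In overexpressor myotubes these included Hdac9, 1.88 ± 0.23 (adjusted p = 1.23e-06), and Camk2d, 0.94 ± 0.11 (adjusted p = 4.51e-07). In knockout myotubes they included Sik1, 1.12 ± 0.069 (adjusted p = 1.13e-10), and Hdac5, 0.95 ± 0.093 (adjusted p = 6.05e-08). Hdac9 was higher in the overexpressor than in control myoblasts, 4.24 ± 0.27 (adjusted p = 5.38e-10), at 8.30 against 0.436 CPM.

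The list of folding, glycosylation and assembly factors, 9 tested of 11, had 0 higher and 5 lower of 9 in overexpressor and 1 higher and 4 lower of 9 in knockout myotubes against control, with medians of -0.41 and -0.089. Of all tested genes, 26.2% were higher and 30.9% lower in overexpressor myotubes, and 31.0% and 37.0% in knockout myotubes. The all-gene medians were -0.037 and -0.068, so the knockout median of the list lies near that of all genes. Rpsa was lower in overexpressor myotubes, -0.46 ± 0.10 (adjusted p = 7.44e-04), and higher in knockout myotubes, 0.83 ± 0.10 (adjusted p = 1.01e-06). Alg2, a glycosyltransferase gene mutated in a congenital myasthenic syndrome, rose on differentiation of control from 52.8 to 116 CPM, 1.14 ± 0.075 (adjusted p = 2.31e-10), and was lower in the myotubes of the clones, at 36.5 and 31.6 CPM, -1.67 ± 0.076 (adjusted p = 2.23e-12) and -1.88 ± 0.077 (adjusted p = 4.35e-13). Of 11 neuronal nicotinic subunit genes, 1 was tested, Chrnb2, which rose in control from 0.811 to 2.37 CPM, 1.54 ± 0.23 (adjusted p = 1.21e-05). Its changes on differentiation of the overexpressor and the knockout, 0.22 and 0.41, did not pass. Both responses passed as smaller than that of control, with differences of -1.32 and -1.13.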
